A study of Mus musculus with 15 samples.

Results

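The Ly6 family genes Ly6a, Ly6d, Ly6e and Ly6c1 were followed in mouse splenic naive and memory B cells, through every probe set that the deposited table of the second screen names for them. These are 5 of the 45101 probe sets on the array. Ly6a was read by 1417185_at, Ly6d by 1416930_at, Ly6e by 1453304_s_at and 1439773_at, and Ly6c1 by 1421571_a_at. The table lists the last of these under the older symbol Ly6c, and its GenBank accession is a RefSeq transcript of Ly6c1. They were picked with their memory and naive values in both screens already known, so those values are given as a description without a test.

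Ly6 proteins are small cell surface proteins with a compact fold held together by disulfide bonds, and most are tethered to the membrane by a glycosylphosphatidylinositol (GPI) lipid anchor. Ly6a is Sca-1, known as a marker of hematopoietic stem cells in mice and induced on lymphocytes by activation and interferon. Ly6e, also called Tsa-1 or Sca-2, is found on immature thymocytes and is induced by interferon as well. Ly6c1 encodes Ly6C, a marker of inflammatory monocytes that is also carried by subsets of T cells, NK cells and plasma cells. Ly6d marks lymphoid progenitors that have turned toward the B lineage, and it stays on mature B cells.

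All cells bound the hapten NP and carried the mVh186.2 transgene, a rearranged antibody heavy chain. In the first screen, naive cells (arrays A, B and C) and memory cells (arrays D, E, F and G) both came from spleens of mVh186.2 transgenic mice. In the second screen, naive cells (arrays A, B, C and D) were sorted as negative for AA4.1, a marker of immature B cells, from mVh186.2 transgenic mice that also lacked the Jk segments (Jk KO). Memory cells of the second screen (arrays EK, FG, HJ and I) arose from splenocytes of mVh186.2 transgenic donors after transfer into AM14/Vk8R transgenic hosts. In that screen, memory state, transfer, host and the Jk deletion differ together between the groups and cannot be told apart. The AA4.1-negative sort, which the labels name for the naive cells alone, differs along with them. The labels give neither ages nor an immunization schedule, and leave it unsaid whether the arrays with paired letters (EK, FG, HJ) stand for pooled mice. They call the replicates biological but do not tie arrays to single mice, so the spread between arrays may be partly technical.

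The values are linear array intensities, and changes are memory minus naive on a scale of log2(intensity + 1). Array medians lay between 103.4 and 153.7 (first screen) or between 25.0 and 26.0 (second), with precision limited by how many arrays there are. The screens were summarised separately, so levels are not compared between them, and levels of different probe sets are not ranked against each other. In the first screen, naive C and memory G stood apart: each was most like the other (Spearman correlation 0.896 over all probe sets) rather than like an array of its own group. The B cell marker genes Cd79a, Cd79b, Ms4a1, Cd22, Cd72 and Blnk lay well above the filter's log2 median (6.98 and 4.73) in both screens. Their naive means were at least 13.55 in the first screen and at least 12.73 in the second. Pax5 also passed the filter but was dimmer, with naive means of 8.03 and 5.33.

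Ly6a showed the widest gap of the 4 genes. In the first screen its intensity was 19883, 22726 and 21447 on naive arrays A, B and C, and 8655, 10016, 11310 and 10812 on memory arrays D, E, F and G. Every memory array lay below every naive array. The log2 mean (with SD) was 13.31 ± 0.17 over 4 memory arrays and 14.38 ± 0.10 over 3 naive arrays, a difference of -1.07 ± 0.10 (standard error from the spread between arrays), or 2.10-fold lower in memory. Without naive C and memory G the difference was -1.10.

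Ly6a in the second screen stood at 7088, 8202, 7441 and 6576 on naive arrays A, B, C and D. On memory arrays EK, FG, HJ and I it stood at 1113, 1147, 1136 and 909. The groups were far apart, and 3 of the memory arrays lay close together with array I below them. The difference was -2.77 ± 0.10, which is 6.81-fold lower in memory (10.07 ± 0.16 against 12.83 ± 0.13, SD, n = 4 each). Counted from the lowest change, Ly6a ranked 20 of 14657 genes in that screen, Ly6c1 313, Ly6e 627 and Ly6d 1050. The ranks among 15828 genes of the first screen were 217 for Ly6a, 797 for Ly6e, 1305 for Ly6d and 4225 for Ly6c1, with each gene read by its brightest probe set.

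Ly6e was measured by 2 probe sets. The brighter one, 1453304_s_at, gave 22833, 24969 and 23985 on the naive arrays of the first screen and 16376, 20258, 15759 and 11856 on memory arrays D, E, F and G. Memory lay below naive on every array, with memory G lowest. The difference was -0.60 ± 0.16, a level 1.52-fold lower in memory.

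The same probe set of Ly6e gave 30529, 31521, 31772 and 32039 on naive arrays A to D of the second screen, a spread of 1.05 times between the lowest and the highest. Memory arrays EK, FG, HJ and I gave 17884, 20227, 16015 and 17195. The groups did not overlap. The difference was -0.82 ± 0.07, which is 1.77-fold lower in memory.

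The other Ly6e probe set, 1439773_at, was far noisier in the first screen. It read 1182, 854.7 and 1776 on naive arrays A, B and C and 362.9, 462.2, 468 and 1468 on memory arrays D, E, F and G. Here the groups overlapped through memory G, which read above naive A and B, and naive C was the highest array. The difference was -1.06 ± 0.55, and without naive C and memory G it was -1.23 with no overlap.

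It read 2901, 2842, 3344 and 2316 on naive arrays A to D and 950.5, 1139, 962.3 and 1308 on memory arrays EK, FG, HJ and I of the second screen. The groups did not overlap. The difference of -1.39 ± 0.15 (2.61-fold lower) was larger than that of the brighter probe set, and both had the same direction in both screens. The suffix s_at marks probes that match more than 1 transcript, and which transcripts each probe set of Ly6e reads was not tested.

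Ly6d differed least among the 3 genes whose brightest probe set showed no overlap in either screen. In the first screen it read 12782, 13484 and 14128 on naive arrays A, B and C and 10460, 11722, 9293 and 7965 on memory arrays D, E, F and G. The naive arrays lay close together and the memory arrays spread below them. The difference was -0.46 ± 0.13, a level 1.38-fold lower in memory, and -0.33 without naive C and memory G.

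Ly6d in the second screen read 4280, 4229, 4486 and 4108 on naive arrays A to D and 2574, 3203, 2508 and 3400 on memory arrays EK, FG, HJ and I. Again no memory array reached a naive array. The difference was -0.56 ± 0.11, or 1.48-fold lower. Memory arrays FG and I were the higher pair for Ly6d and also for Ly6e by 1439773_at, whereas Ly6a was lowest on I. By the brighter Ly6e probe set, 1453304_s_at, the higher pair was FG (20227) and EK (17884), with I at 17195.

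Ly6c1 differed from the other members in the first screen. Its intensity was 1817, 2594 and 1430 on naive arrays A, B and C and 2008, 1700, 1961 and 1219 on memory arrays D, E, F and G. The groups overlapped, with naive B highest and memory G lowest. The difference was -0.16 ± 0.30, smaller than its own error, and it became 0.07 without naive B and -0.36 without naive C.

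Ly6c1 in the second screen read 553, 861.7, 418.4 and 979 on naive arrays A, B, C and D and 246.6, 283.6, 371.5 and 256.6 on memory arrays EK, FG, HJ and I. Memory lay below naive on every array, but the naive arrays themselves differed by 2.34 times, the widest spread of any member in that screen. The difference was -1.22 ± 0.31, or 2.32-fold lower in memory. No probe set is named for the close relative Ly6c2, and whether 1421571_a_at also reads Ly6c2 transcripts was not tested.

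The order of Ly6c1 among the naive arrays of the second screen (C, A, B, D from low to high) was also the order of the summed intensity of 7 NK cell markers there, which was 584.5 on C, 647.2 on A, 840.2 on B and 940.9 on D. On the memory arrays the orders differed. There that sum was 158.6 on FG, 228.8 on EK, 251.9 on I and 270.8 on HJ, whereas Ly6c1 was lowest on EK. In the first screen the sum was 489.9 to 584.6 in naive and 612.3 to 980.2 in memory cells, while Ly6c1 overlapped between the groups. Among the naive arrays there, the NK sum was highest on C (584.6), where Ly6c1 was lowest. By the limma fit over all genes of the second screen, 4 of 4 NK genes tested were lower in memory, where 16% of all genes were called lower and 10.5% higher. They were Klrd1 (-1.52, adjusted p = 0.000217), Nkg7 (-1.33, adjusted p = 0.000992), Gzma (-2.48, adjusted p = 0.00123) and Ncr1 (-0.96, adjusted p = 0.00253), while Klrb1c, Klrk1 and Prf1 lay below the screen's median intensity on every array. Summed intensity of 11 myeloid markers ranked the naive arrays of the second screen in the same order as Ly6c1 (1611 on C, 2156 on A, 3084 on B and 8741 on D). The sums of the other marker lists ordered these naive arrays differently. On the memory arrays the myeloid sum ran from 4136 to 8320. The part of NK, T or myeloid cells in the Ly6c1 values was not tested, and in bulk samples fewer cells of a type and less RNA per cell cannot be told apart.

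Other cell markers were counted in the same fits. Of 8 T cell markers tested in the second screen, Lck (-2.02), Cd3g (-1.77), Cd3d (-1.49) and Cd28 (-1.02) fell and Cd2 rose (1.25), and their summed intensity over 10 genes was 3243 to 3705 in naive and 5731 to 6464 in memory cells. Cd2, which B cells also express, made up most of that sum, and the other 9 genes summed to 798 to 1217 in naive and 385 to 503 in memory cells. Of 5 T cell markers tested in the first screen, 1 fell (Lck, -0.95), where 0.19% of all genes were called lower and 0.638% higher. Plasma cell markers had Jchain higher in both screens (3.46 and 3.36), with Fkbp11 (1.23) also higher in the first among 6 tested. Mzb1 was lower (-0.23) in the second among 7 tested. Their sum over 8 genes was 32229 to 38275 in naive and 42165 to 48218 in memory cells of the first screen, and 10645 to 14077 against 19457 to 22017 in the second. Leaving Jchain out, the sum was 31549 to 36356 in naive and 28810 to 32176 in memory cells of the first screen, and 9606 to 11288 against 9318 to 11390 in the second. Of immature B cell markers, Vpreb3 fell in both screens (-2.48 and -3.23), and Cd93 (-3.39) and Il7r (-1.41) fell in the second, among 4 tested in each. Cd93 encodes the AA4.1 antigen, and its log2 level was higher in the naive cells (7.65), which were sorted as AA4.1-negative, than in the memory cells (4.26). Of 8 B cell markers, Cd72 fell in both screens (-1.19 and -2.07) and Blnk in the second (-0.37). Of myeloid markers, Cd68 rose in the second screen (0.89), 1 of 8, and dendritic Flt3 fell there (-0.56), 1 of 2. No endothelial (1 tested) or erythroid gene (3 tested) was called by limma in the second screen, with 0 and 1 at an unadjusted p under 0.05, and 6 of 7 endothelial markers lay below the median on every array. The first screen had no call by limma among myeloid (9 tested), NK (2), dendritic (4), endothelial (2) or erythroid markers (4), with 5, 1, 0, 0 and 2 at an unadjusted p under 0.05. Nearest to the threshold were Lyz2 (1.45, adjusted p = 0.0784), Cd68 (1.04, adjusted p = 0.0849) and Alas2 (3.60, adjusted p = 0.0997). Though uncalled, 8 of the 9 myeloid changes there were above 0. The summed intensity of 11 myeloid markers was 2149.8 to 3512.5 in naive and 4278.6 to 10688.3 in memory cells of that screen. For 5 erythroid markers it was 2223.2 to 5459.7 against 7320.9 to 29757.5, while the dendritic and endothelial sums overlapped. The part of these cells in the Ly6 values was not tested.

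**Figure D1:**
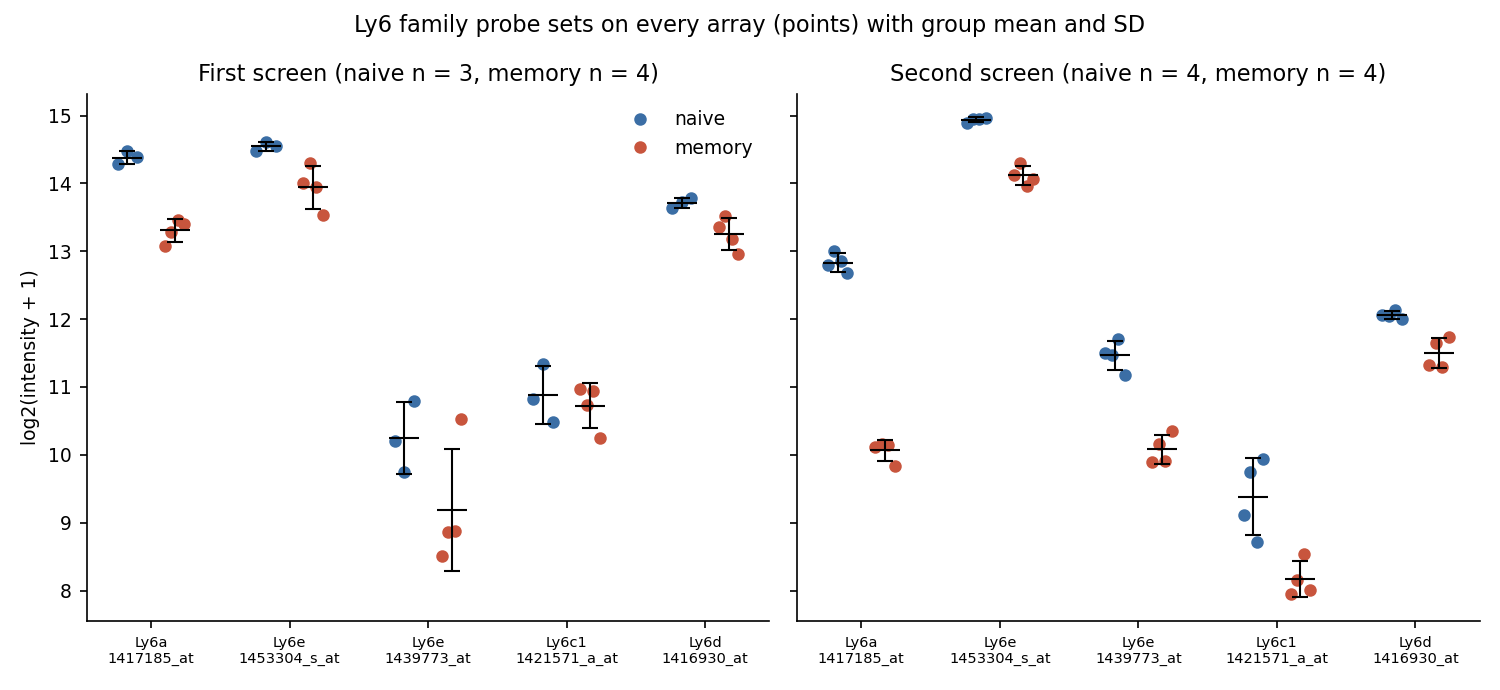
Each point is 1 array, with log2(intensity + 1) on the vertical axis and the 5 Ly6 probe sets on the horizontal axis, naive in blue and memory in red, and black bars give the group mean and SD. Memory lies below naive without overlap for 3 probe sets in the first screen and for all 5 in the second, while Ly6c1 and Ly6e by 1439773_at overlap in the first.

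Memory arrays lay wholly below naive arrays for 3 of 5 member probe sets in the first screen, where this held for 4.5% of 15828 genes tested, and for 5 of 5 in the second, where it held for 17.4% of 14657. Nothing is read from these counts, because the members were picked from the same contrasts. In the authors' deposited table of the first screen, the ratio of memory over naive was 0.637 for Ly6a, 0.976 for Ly6d and 1.18 for Ly6c1. The pooled columns behind that table are sums of 4 memory and 3 naive arrays, and the ratio of means is 0.478, 0.732 and 0.884, so the side of 1 on which Ly6c1 falls depends on this. For the second screen the authors' deposited table holds means, and its ratios (0.147 for Ly6a, 0.412 for Ly6c1, 0.683 for Ly6d) equal the ratios of means.

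The 4 genes lie in 1 cluster on mouse chromosome 15. In RefSeq order Ly6d comes first, Ly6e and Ly6a follow, and Ly6c1 is the next gene after Ly6a. Between Ly6d and Ly6c1 lie 15 other genes, of which 8 are protein coding and 5 of those have a probe set. Of these, the first screen tested 4 and the second tested 2, and limma called none of them in either. The uncalled Ly6i, which sits between Ly6e and Ly6a, stood at -0.67 ± 0.26 (adjusted p = 0.403) and -0.19 ± 0.16 (adjusted p = 0.422) in the first and second screen. Every memory array of Ly6i lay below every naive array in the first screen. In the second its log2 means (4.92 in naive and 4.73 in memory) lay close to the filter's median of 4.73, so a fall could hardly be seen there. Ly6k stood at 0.49 ± 0.27 (adjusted p = 0.62) and 0.06 ± 0.21 (adjusted p = 0.858). Lynx1, a modulator of nicotinic acetylcholine receptors that directly neighbours Ly6d on its far side, fell by 1.21 in the second screen (limma, adjusted p = 0.000914). Its probe set ends in x_at, the mark of probes that may bind other transcripts.

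The wider family was examined through a list of 45 genes of the Ly6/uPAR superfamily that are not members, of which 27 are named by a probe set. Of these, 10 were tested in the first screen and limma called none at an adjusted p under 0.05, with 4 at an unadjusted p under 0.05. The median change was 0.02, as for all genes tested (0.02), and 0.638% of all genes were called higher and 0.19% lower. Plaur, the urokinase receptor, was nearest to the threshold at 0.90 ± 0.17 (adjusted p = 0.0507, and 0.0194 to 0.461 over the alternatives). It passed the threshold with the stricter filter, with a pseudocount of 16 and when naive C and memory G were both left out. In that last fit 2 relatives were called higher (Plaur and Cd59a) and 1 lower (Lynx1), where 2.36% and 2.75% of all genes were called higher and lower.

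Of 7 relatives tested in the second screen, 1 rose and 1 fell, against 10.5% and 16% of all genes. Plaur rose from 7.50 ± 0.03 in naive to 8.50 ± 0.12 in memory cells (SD, n = 4 each; change 1.00, adjusted p = 2.3e-05), and Lynx1 fell from 8.05 ± 0.22 to 6.85 ± 0.33. Both held under all 15 alternatives. Cd59a, which protects cells from complement, stood at 0.40 ± 0.14 (adjusted p = 0.0718) and Cd177 at 0.78 ± 0.36 (adjusted p = 0.142). Leaving out memory I brought Cd59a past the threshold (adjusted p = 0.0431, and 0.0431 to 0.174 over the alternatives), and leaving out naive D did so for Cd177 (adjusted p = 0.021, and 0.021 to 0.318). Most relatives were too dim to test in either screen.

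**Figure D2:**
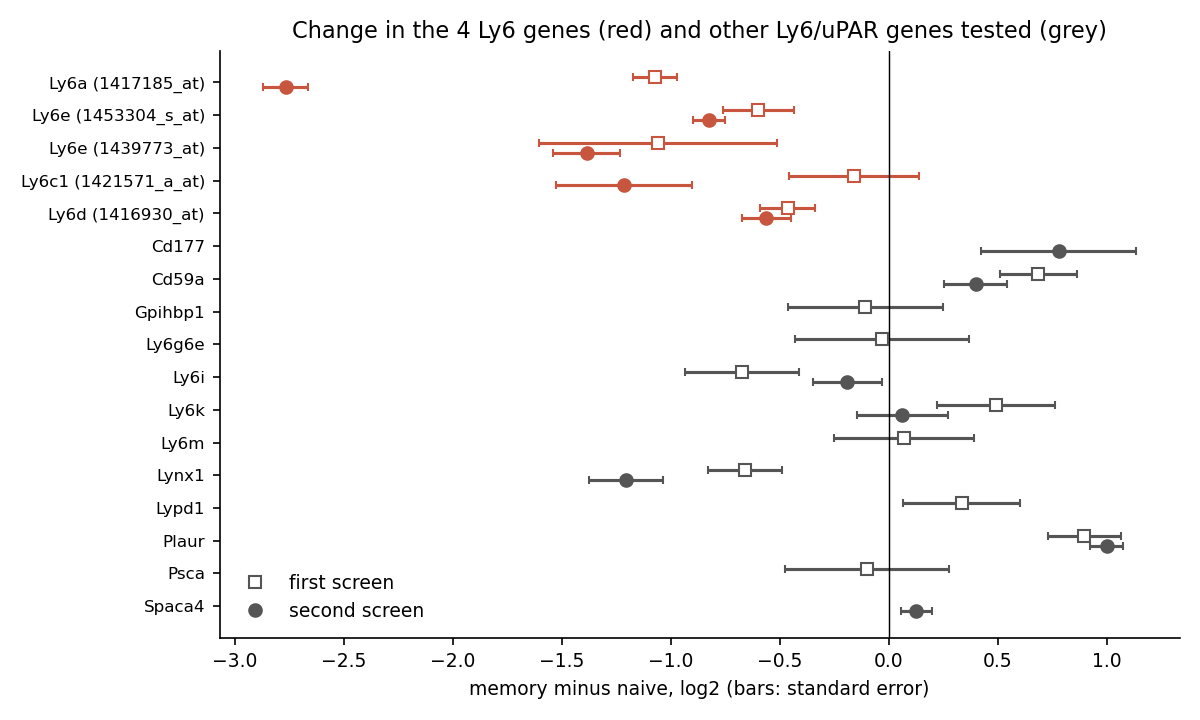
Memory minus naive on the log2 scale for the 5 member probe sets (red, standard error from the spread between arrays) and the tested Ly6/uPAR relatives (grey, standard error of the limma fit), with open squares for the first and filled circles for the second screen. The members lie left of 0 in both screens, and Plaur lies near 1 in the second.

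Because Ly6a, Ly6e and Ly6c1 respond to interferon in mice, 41 interferon-stimulated genes were counted beside them. Interferon acts through STAT and IRF factors on response elements in promoters and so raises many antiviral genes together. Of 36 genes tested in the second screen, 26 fell in memory cells and 2 rose, against 16% and 10.5% of all genes. The median change of the list was -0.65, and that of all genes tested was -0.02. Ifi44 fell from 9.94 ± 0.21 to 6.91 ± 0.29 (SD, n = 4 each; change -3.04, adjusted p = 2.04e-06). Usp18, a protease that removes ISG15 and dampens interferon signalling, changed by -2.40 (adjusted p = 3.22e-06). The antiviral gene Ifit3 changed by -1.88 (adjusted p = 1.34e-05) and the exonuclease gene Isg20 by -1.07 (adjusted p = 1.17e-05). These 4 calls held under all 15 alternatives.

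Against the other members of that list, Ly6a's change of -2.77 in the second screen was exceeded by that of 1 gene of 36, Ifi44. The changes of Ly6c1, Ly6e (1453304_s_at) and Ly6d were exceeded by 10, 13 and 20 genes. The guanylate-binding protein gene Gbp3 went the other way and rose by 1.02 (adjusted p = 5.33e-05). Oasl2, named after its values were seen as the other gene that rose (1.50, adjusted p = 0.0487), lost its call under 12 of 14 alternatives.

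Limma called none of 37 interferon genes in the first screen, with 15 at an unadjusted p under 0.05, and 32 of the 37 changes were below 0. The list's median was -0.33 against 0.02 for all genes tested. The uncalled Usp18 had a change of -1.09 (adjusted p = 0.0628), and Ifi44 one of -1.23 (adjusted p = 0.0636). In the fit lacking naive C and memory G, 10 interferon genes were called lower and none higher (limma, against 2.75% and 2.36% of all genes). Leaving out 1 array called 2 lower without memory G and 1 lower without naive C or memory F. Ly6a's own change of -1.07 was exceeded by that of 3 genes of 37.

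**Figure D3:**
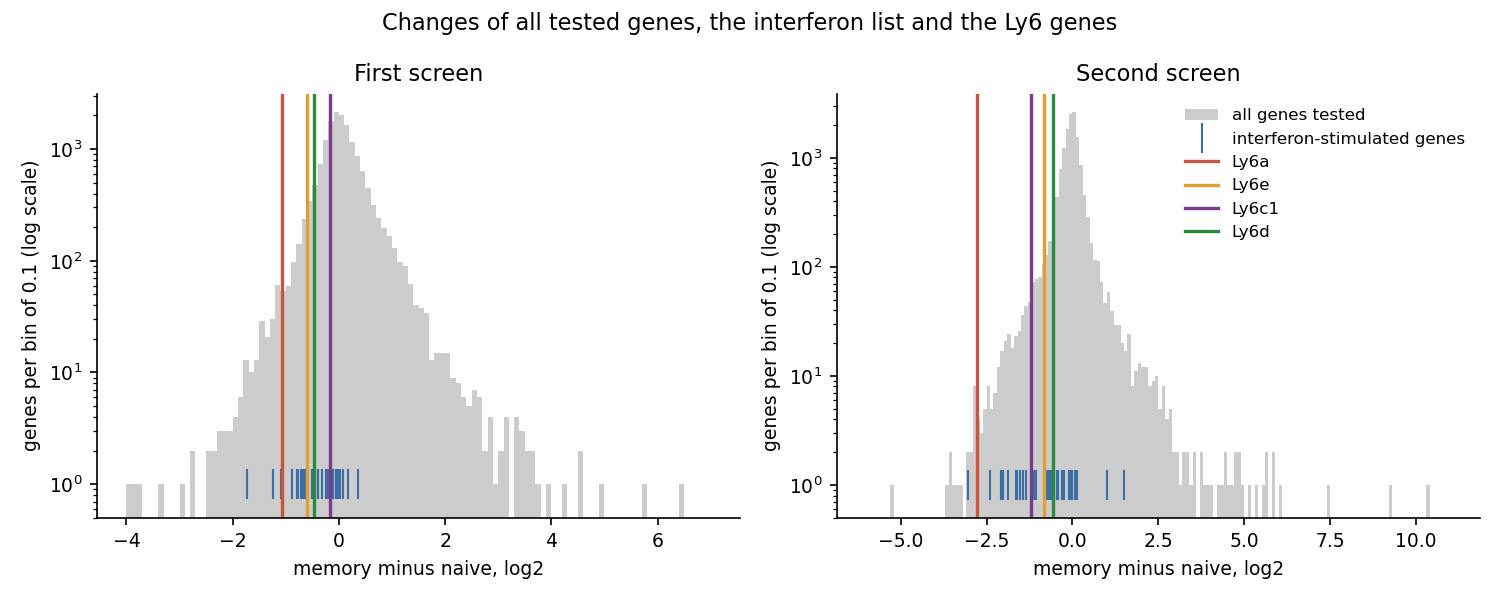
Histograms of memory minus naive (log2, bins of 0.1) for all genes tested in each screen, with gene counts on a log axis, blue ticks for interferon-stimulated genes and a coloured line for each Ly6 gene by its brightest probe set. In the second screen most blue ticks lie left of 0, and Ly6a at -2.77 lies near the left edge.

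Promoter sequence in RefSeq was at hand for Ly6c1 alone among the members, and it is shown because it allows a direct look for interferon response letters. The window covers chr15:75048788-75049087 of GRCm38.p6 on the minus strand, from 250 bases before to 50 after an annotated start, and has 49% G and C.
Ly6c1 promoter: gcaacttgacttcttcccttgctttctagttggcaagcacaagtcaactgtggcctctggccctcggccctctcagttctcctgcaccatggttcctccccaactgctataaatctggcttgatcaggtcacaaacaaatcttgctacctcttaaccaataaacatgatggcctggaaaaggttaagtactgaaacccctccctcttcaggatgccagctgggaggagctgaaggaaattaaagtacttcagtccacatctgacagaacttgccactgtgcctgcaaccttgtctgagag

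Both strands were searched for GAAA, then any 2 bases, then GAAA, the core of the interferon-stimulated response element, and for TTCNNNGAA, the gamma-activated sequence bound by STAT dimers. Neither string occurs in this window or in that of the other annotated Ly6c1 start, so it holds no capitals. Of all 32851 promoter windows of this length, 3.44% hold the first string and 8.3% the second. Of the 30 listed interferon genes with a promoter entry, 16 (53.3%) hold the first and 8 (26.7%) the second. These shares count a gene with a match in any of its windows, whereas the shares over all promoters count single windows. A gene with several annotated starts has more windows, so the shares are not in the same unit. For comparison, sites are shown for the 3 genes with the smallest p among the interferon genes lower in memory whose window holds the first string, with the string in capitals on either strand. The stretch of Isg15 holds 2 overlapping matches, marked as 1 run of capitals.
Ifit3, chr19:34583363-34583392, plus strand: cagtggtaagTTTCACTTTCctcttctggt
Trim30a, chr7:104465210-104465239, minus strand: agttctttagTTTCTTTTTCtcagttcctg
Isg15, chr4:156200877-156200906, minus strand: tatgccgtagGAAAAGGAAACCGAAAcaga
The changes of Ifit3, Isg15 and Trim30a in the second screen were -1.88, -1.37 and -0.70. A match of letters describes the sequence and is not a measured binding site.

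The genes with the most similar profiles were found by the root mean square difference over 15 arrays, after each profile was centred on its mean within each screen, among 9726 genes that passed the filter in both screens. The arrays share their screen's processing, and most of each profile is its naive and memory difference. Nearest to Ly6a were Rgs10 (0.21), Ifi44l (0.22) and Usp18 (0.25), against a median distance of 1.09 over all genes. The nearest genes lie below the median by construction, and this median is close to the root mean square of Ly6a's own profile (1.08). Rgs10, a regulator of G protein signalling, had differences of -0.90 (first) and -2.85 (second), Ifi44l of -1.37 and -2.82, and Usp18 of -1.09 and -2.40. Usp18 was also in the interferon list.

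Nearest to Ly6e were Ift140, Ubald2 and Natd1, all at 0.12 against a median of 0.44. Nearest to Ly6d were Ptprcap (0.11), Fam122b (0.12) and Cpsf7 (0.13) against a median of 0.36, and Ptprcap encodes a protein that associates with the phosphatase CD45. Nearest to Ly6c1 were Noxred1, Arl4c and Pacsin1, all at 0.30 against a median of 0.59, so its nearest genes were less close than those of the other members.

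**Figure D4:**
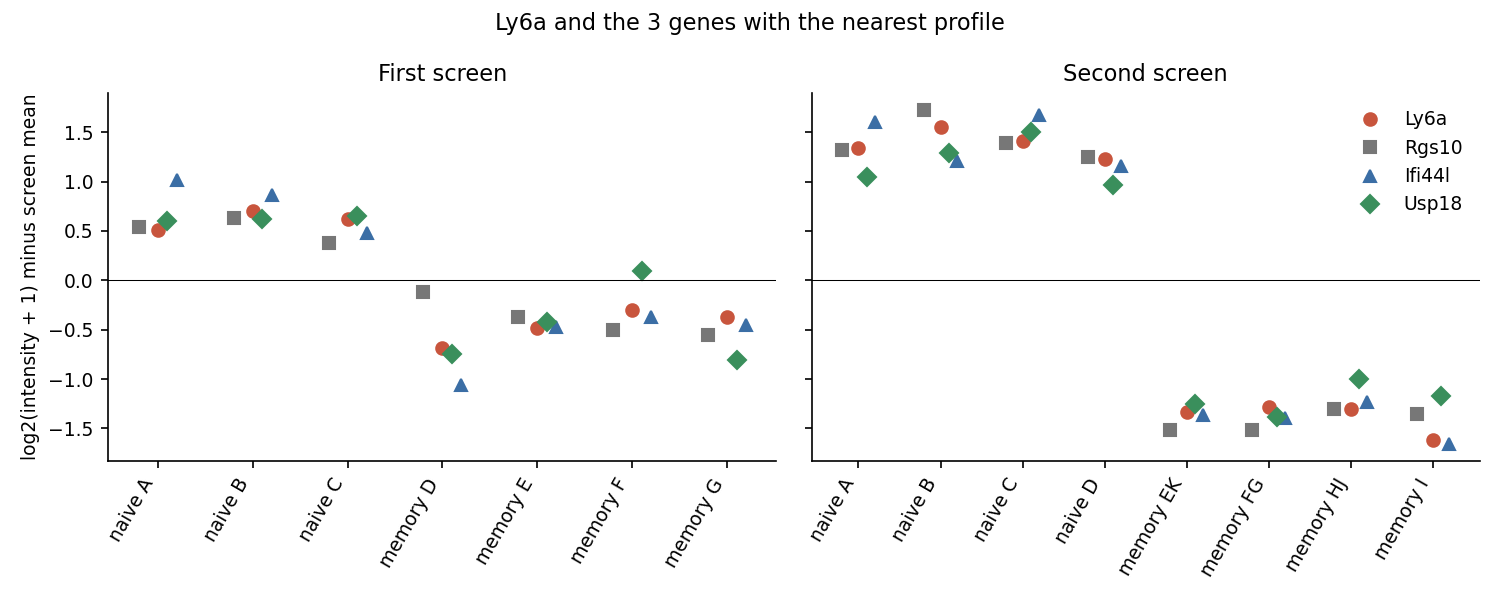
Each symbol is the log2(intensity + 1) of a gene on 1 array minus its mean over the screen, for Ly6a (red circles), Rgs10 (grey squares), Ifi44l (blue triangles) and Usp18 (green diamonds). All 4 genes lie above 0 on naive arrays and below 0 on memory arrays, except Usp18 on memory F of the first screen.

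Other proteins with the same kind of anchor did not share a single direction. Of 30 other GPI-anchored surface proteins, 15 were tested in the first screen, of which 1 fell and none rose, against 0.19% and 0.638% of all genes. That gene was Cpm, a carboxypeptidase, with a change of -1.63 (adjusted p = 0.00157). Of 12 tested in the second screen, 3 rose and 5 fell, against 10.5% and 16% of all genes. Cpm changed by -2.60 (adjusted p = 2.54e-06), the semaphorin Sema7a by -0.84 (adjusted p = 0.00213) and Cd52 by -0.23 (adjusted p = 0.0107), while Cd48, a ligand of CD244, rose by 0.73 (adjusted p = 1.99e-05). The list's median changes were 0.02 and -0.07.

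The enzymes that build and attach the anchor were counted in the same way. Of 29 genes of GPI anchor synthesis, 20 were tested in each screen, with median changes of 0.01 and -0.01. In the second 1 rose and 2 fell, against 10.5% and 16% of all genes. The mannosyltransferase gene Pigb rose by 0.69 in the second screen (adjusted p = 0.00038), and Pigf (-0.56, adjusted p = 0.0171) and Piga (-0.41, adjusted p = 0.0282), which begins anchor synthesis, fell. In the first screen limma called none, with 3 at an unadjusted p under 0.05. The uncalled Pigb stood at 0.68 (adjusted p = 0.155) and Pigt at -0.53 (adjusted p = 0.218) there.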

How the data were processed

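Biotin-labelled RNA of 15 samples was read on arrays of 45101 probe sets, and 64 control probe sets were removed. The deposited values are linear intensities. For the second screen the authors used GCRMA, per the submitters' processing notes. The summary method of the first was not stated there. Ratio and p-value columns deposited by the authors entered no test.

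Each intensity became log2(intensity + 1). Probe sets above their screen's median (6.98 and 4.73) on at least 3 or 4 arrays were kept, and a gene was represented by its brightest. Within each screen limma 3.58.1 (R 4.3.3; eBayes, trend on mean intensity) compared memory with naive, and p was adjusted by Benjamini-Hochberg over 15828 and 14657 genes at a threshold of 0.05. The 13 lists were Ly6/uPAR relatives, interferon-stimulated, GPI-anchored (1 gene shared with the interferon list), GPI synthesis and 9 marker lists. Members and lists were chosen with earlier results of these data known. Named by rule were every called relative and the 2 nearest to a call, up to 4 called (or 2 uncalled) genes of other lists, and 3 nearest profiles per member. Symbols and promoters came from RefSeq. Python 3.11.15, pandas 2.3.3 and Matplotlib 3.10.9 served the remaining steps.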

Additional observations from a re-analysis of the deposited data

Results flagged for a closer look

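Ly6a on memory array I of the second screen, at 9.83 on the log2 scale, lay apart from the other 3 memory arrays (10.12, 10.17 and 10.15), with a gap of 0.869 of the group's range. Among 15 groups of 4 arrays checked this way it was the only one, and chance flags about 1 in 20. Without that array the Ly6a difference was -2.69, against -2.77 with it. The summed intensity of the interferon genes on array I was 35222, against 34467 to 35078 on the other memory arrays.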

How the results depend on the processing

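All 5 member probe sets kept their sign in both screens under every alternative, except Ly6c1 in the first screen, which was 0.07 without naive B. Of 110 member values under alternatives, 108 moved by less than the spread between arrays. The other 2 were Ly6a (-1.26) and Ly6d (-0.65) of the first screen under median centring, which shifted the median of all genes there by -0.19. In the first screen 101 genes were called higher and 30 lower, which became 51 and 14 under median centring, 15 lower with every probe set, 16 lower without the intensity trend, and 387 higher and 451 lower without naive C and memory G. Leaving out 1 array gave 54 (without memory F) to 116 (without naive C) higher and 7 (without naive B) to 46 (without memory G) lower.

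Among relatives in the first screen, the stricter filter or a pseudocount of 16 called 1 higher, and leaving out naive C and memory G called 2 higher and 1 lower. Interferon genes called lower there were 1 under median centring, 10 without naive C and memory G, and 0 to 2 when leaving out 1 array. In the second screen, relatives called higher were 2 under quantile normalization and 1 to 2 when leaving out 1 array. Interferon genes called higher there were 1 with no filter, the stricter filter, median centring, pseudocount 16, every probe set or no trend, and 1 to 2 when leaving out 1 array. Of 180 counts under alternatives, 138 stayed within 1.5 times. The causes were not tested. No paired analysis was possible because the groups compared share no replicate letters.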
